A study of Mus musculus with 25 samples.

Results

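The regions described here were 748 of the 13527 peaks of open chromatin (5.53%) counted in fetus- and graft-specific CD8+ T cells, called T_FGS, of female C57BL/6 mice. They were chosen by the deposited peak lists. A member shared at least 1 bp with a peak on both lists of PD1-positive T_FGS from mice sensitized before pregnancy (S+P C5, S+P C7) and with no peak on the Naive, N+P C1, N+P C5 or Sensitized lists. Coordinates are 1-based on GRCm39. A peak is called by the protein-coding gene with the transcription start nearest to its midpoint, a name that says nothing of which gene it regulates.

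Chromatin was profiled by ATAC-seq, in which a transposase cuts accessible DNA and leaves sequencing adapters at the cut. T_FGS were sorted from spleen and lymph nodes with a tetramer of an OVA peptide on Kb, an antigen of the 2W-OVA.BALB/c strain that gave both the skin grafts and the fathers of the fetuses. The 25 libraries made 7 groups. Naive cells came from untreated mice (n = 3) and Sensitized cells from mice that had rejected an allogeneic skin graft without pregnancy (n = 4). N+P cells came from mice whose first contact was a semi-allogeneic pregnancy, sampled shortly after delivery, and were sorted into C1, which is PD1- (n = 3), and C5, which is PD1+CD73+ (n = 3). S+P cells came from mice that had the graft and then the pregnancy, and were sorted into C4, which is PD1- (n = 4), C5, which is PD1+CD73+ (n = 4), and C7, which is PD1+CD73- (n = 4). The labels name no PD1 or CD73 gate for Naive and Sensitized cells, so their difference from the S+P populations and a difference in sorting cannot be told apart. The study's methods describe cell suspensions of individual mice for its experiments in general. The labels do not say that libraries of a group came from separate mice, so p-values measure the spread among these libraries.

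A CD8+ T cell that has met its antigen opens enhancers and promoters that are closed in a naive cell, and memory cells keep many of them open at rest. Cells that meet antigen for a long time can enter exhaustion, a state with inhibitory receptors such as PD1 (gene Pdcd1) and CTLA4, a set of distal elements of its own, and transcription factors such as TOX and EOMES. CD73 (gene Nt5e) is a surface enzyme that makes adenosine, which inhibits T cells. Because these are bulk libraries, a lower count in a region cannot be told apart as fewer cells with the region open or less opening in each cell.

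Several libraries stood apart from their groups. Some of the results that rest on them are given with and without them, and others with all libraries only. Total counts ran from 2430890 in S+P C4 replicate 1 to 25419715, with a median of 8197552. Members held 3.05% and 2.43% of the counts in Sensitized replicates 1 and 2, and 1.89% and 1.88% in replicates 3 and 4, against 1.64 to 1.86% in Naive. Within S+P C4 the share was 2.42% and 2.62% in replicates 1 and 2 and 3.18% and 3.01% in replicates 3 and 4. Promoter peaks were present for the T cell genes Cd3d, Cd3e, Cd3g, Cd8a and Lck and for no listed marker gene of CD4 or regulatory T cells, B cells, NK cells, myeloid cells or erythroid cells, while Cd8b1 and Cd2 had none either.

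Windows of 300 bases around the midpoints of 4 members show the kind of sequence involved. Gtsf1l and Shc4 were among the members with the widest gap between the S+P C5 and C7 libraries and those of the barred groups, and the other 2 belong to Ctla4 and Ikzf2, described below with the exhaustion genes. The windows lay at chr2:162945155-162945454 (Gtsf1l), chr2:125577564-125577863 (Shc4), chr1:60951643-60951942 (Ctla4) and chr1:69583417-69583716 (Ikzf2), all read from the + strand of GRCm39. Capitals mark matches on either strand to the searched letters for AP-1, NFAT, T-box and Runx factors. Gtsf1l holds an NFAT match at bases 27 to 32, a Runx match at 193 to 199 and a T-box match at 249 to 255. Shc4, Ctla4 and Ikzf2 hold none of these letters in the window.
Gtsf1l: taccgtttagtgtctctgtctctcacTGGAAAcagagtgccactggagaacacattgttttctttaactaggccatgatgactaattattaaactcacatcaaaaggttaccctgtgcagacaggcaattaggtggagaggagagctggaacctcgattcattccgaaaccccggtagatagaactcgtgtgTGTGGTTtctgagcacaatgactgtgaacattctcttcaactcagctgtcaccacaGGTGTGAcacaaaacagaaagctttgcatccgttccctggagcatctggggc
Shc4: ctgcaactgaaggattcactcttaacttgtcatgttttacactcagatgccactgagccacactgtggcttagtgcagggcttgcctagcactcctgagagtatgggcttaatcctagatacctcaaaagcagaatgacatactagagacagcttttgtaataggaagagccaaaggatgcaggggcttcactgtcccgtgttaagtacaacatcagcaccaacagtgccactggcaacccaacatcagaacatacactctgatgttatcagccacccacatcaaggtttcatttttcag
Ctla4: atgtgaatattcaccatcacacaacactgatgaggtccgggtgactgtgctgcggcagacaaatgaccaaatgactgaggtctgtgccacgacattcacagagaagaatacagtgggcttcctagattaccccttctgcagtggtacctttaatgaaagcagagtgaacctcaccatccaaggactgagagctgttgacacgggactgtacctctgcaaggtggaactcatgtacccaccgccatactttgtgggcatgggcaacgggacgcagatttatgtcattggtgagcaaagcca
Ikzf2: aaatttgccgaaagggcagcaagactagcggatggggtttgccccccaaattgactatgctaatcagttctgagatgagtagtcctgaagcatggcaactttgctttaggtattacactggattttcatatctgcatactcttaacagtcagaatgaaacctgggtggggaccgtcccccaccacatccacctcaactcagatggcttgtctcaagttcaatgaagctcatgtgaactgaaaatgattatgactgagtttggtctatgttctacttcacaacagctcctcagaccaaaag

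The ChIP-R score of a list peak, which grades how well it recurs between libraries of a group, had a median of 429.5 over members on the S+P C5 list and 367 on the S+P C7 list, against 666 and 679 over the other peaks on these lists. Members thus scored lower than the rest of the lists that chose them. The lowest deposited q-value of a member was 0.0753 on the S+P C5 list and 0.0598 on the S+P C7 list, while 1680 and 1304 other peaks had a q-value under 0.05. Of the 8114 peaks on both lists, 798 were barred by 1 list alone, and for 731 of these it was the Sensitized list. Just inside the rule lay Tmem214, whose peak at chr5:31026804-31027080 shared 234 bp with the S+P C7 list and had group means of 172 (Naive), 184 (Sensitized), 199 (S+P C5) and 215 (S+P C7) normalized counts. Just outside lay Elk3, at chr10:93109351-93109846, barred by 256 bp of a Sensitized peak, with 140, 245, 268 and 327.

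The word only does not describe these regions. The 8 libraries of S+P C5 and S+P C7 lay above all 13 libraries of the 4 barred groups in 150 of 748 members (20.1%, against 3.32% of all peaks), and in the other 598 the libraries overlapped. They lay above all Sensitized libraries in 173 members (23.1%, against 4.71%). Sensitized replicate 1 reached the lowest S+P C5 or C7 library in 522 members (69.8%), replicate 2 in 254, replicate 3 in 111 and replicate 4 in 85. Naive replicates 1 to 3 reached it in 199, 214 and 102 members, and the N+P libraries in 77 to 134. S+P C4 libraries, whose list did not enter the rule, reached it in 276, 349, 556 and 508 members. The same counts over all peaks were not computed. Only 4 members were on the S+P C4 list, which at 3788 peaks was short beside the others (8479 to 11384). All levels and differences of S+P C5 and S+P C7 from the barred groups were set by this choice and are given as a description, with no test.

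Levels fell into 2 kinds of region. The 313 members within 1000 bp of a transcript start (promoter members) had medians of 245 to 278 per Naive library, against 589.6 to 594 over all promoter peaks, and 33 of them were over 1 higher in S+P C5 than in Naive on the log2 scale. The 435 members outside promoters were lower in Naive, at medians of 112 to 127 per library against 354 to 368 over all peaks outside promoters. For members outside promoters the median normalized count per library was 112, 127 and 112 in Naive, 89.6, 96.4 and 102 in N+P C1, and 110, 115 and 118 in N+P C5. It was 283, 259, 151 and 167 in Sensitized and 194, 252, 300 and 279 in S+P C4. It was 343 ± 48.7 (SD, n = 4) across S+P C5 and 395 ± 22.8 (SD, n = 4) across S+P C7. Every S+P C5 and S+P C7 library lay above every other library on this median, the Sensitized and S+P C4 libraries lay between, and all of those lay above Naive. Over promoter members the spread was smaller, with 265 ± 17.3 (SD, n = 3) in Naive, 262 ± 47.5 (SD, n = 4) in Sensitized, 317 ± 28.7 (SD, n = 4) in S+P C4, 334 ± 10.9 (SD, n = 4) across S+P C5 and 364 ± 19.3 (SD, n = 4) across S+P C7. The median over all peaks had group means of 470 to 482.

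**Figure D1:**
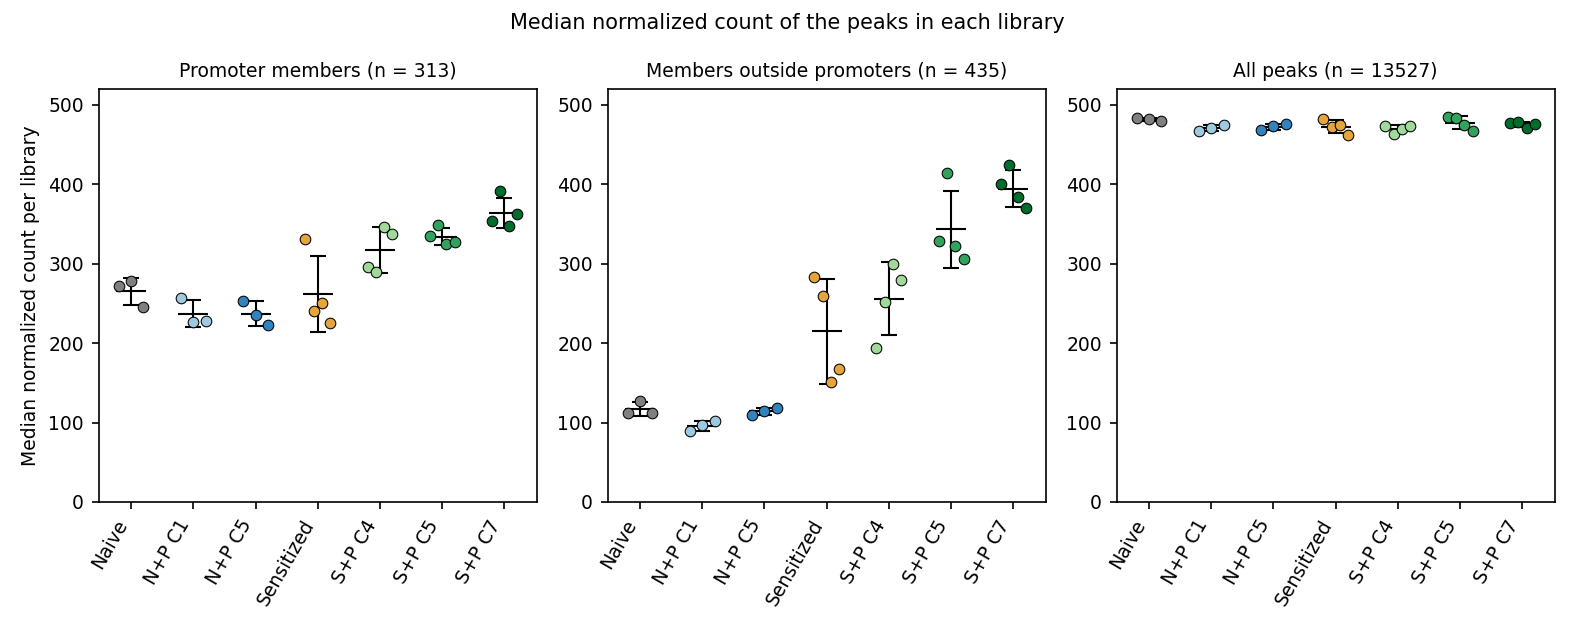
Each point is a library's median normalized count (linear axis) over the 313 promoter members, the 435 members outside promoters or all 13527 peaks, by group, with bars for the mean ± SD of a group. Outside promoters the Naive and both N+P groups sit between 89.6 and 127, Sensitized between 151 and 283, and the PD1-positive S+P groups between 306 and 424, while over all peaks the groups lie together.

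By group means of log2(normalized count + 1), the median member outside promoters was 1.68 higher in S+P C5 than in Naive and 0.70 higher than in Sensitized. For S+P C7 these medians were 1.89 and 0.89. Promoter members had medians of 0.27 and 0.35 (S+P C5) or 0.40 and 0.45 (S+P C7). Over all peaks these 4 medians were 0.01 or less in size. The difference of S+P C5 from Sensitized was over 1 in 159 members (21.3%, against 3.25% of all peaks), and 154 of these were outside promoters. The distance to Sensitized depended on which Sensitized libraries were used. Without replicates 1 and 2, an alternative chosen after seeing the data, the median outside promoters went from 0.70 to 1.13 for S+P C5 and from 0.89 to 1.28 for S+P C7. Without replicates 3 and 4 these medians went to 0.28 and 0.49. Over all members that of S+P C5 went from 0.45 to 0.66 or 0.26. With offsets from a loess curve over peak level in place of size factors, the medians outside promoters were 0.45 (S+P C5) and 0.65 (S+P C7).

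**Figure D2:**
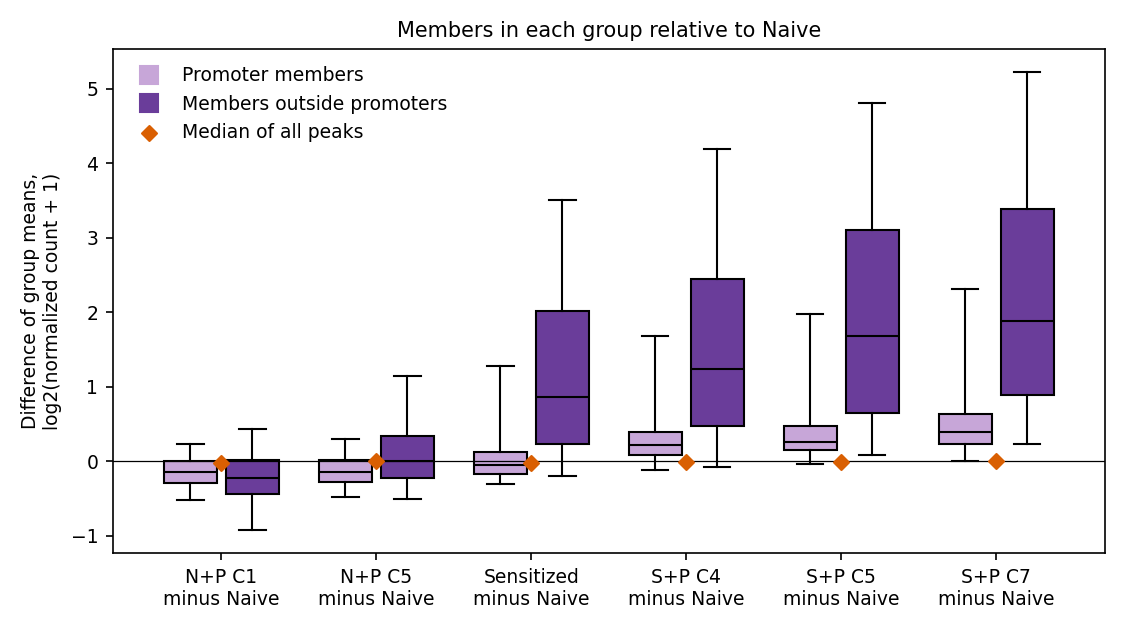
Differences from Naive in the group mean of log2(normalized count + 1), by group, for promoter members and members outside promoters. Boxes span the quartiles with the median as a line, whiskers run from the 5th to the 95th percentile, and diamonds give the median of all peaks. Outside promoters the median rises from 0.01 in N+P C5 to 0.86 in Sensitized, 1.24 in S+P C4, 1.68 across S+P C5 and 1.89 across S+P C7.

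Among the members with the widest separation, the 6 described here lay outside promoters. Gtsf1l (chr2:162944721-162945889) and Shc4, a signalling adaptor (chr2:125577333-125578095), were low in all 4 barred groups. At Gtsf1l the counts were 55.1, 71.8 and 71.9 in Naive, 109.7, 74 and 141 in N+P C5, 57.7, 52.6, 109 and 138 in Sensitized, 235, 169, 140.0 and 131 in S+P C4, 932, 1122, 785 and 702 across S+P C5 and 1013, 1187, 633 and 489 across S+P C7. At Shc4 they were 57.9, 69.8 and 46.7 in Naive, 85.4, 53.4, 74 and 73.8 in Sensitized, 157, 179, 215 and 295 in S+P C4, 471, 686, 289 and 377 across S+P C5 and 406, 625, 359.5 and 405 across S+P C7. At Gtsf1l every S+P C5 and C7 library lay above every S+P C4 library, and at Shc4 S+P C4 replicate 4 reached the lowest S+P C5 library. An intron of Wwox, an oxidoreductase with WW domains (chr8:115704362-115705151), went from 15.6, 43.9, 21.2 and 26 in Sensitized to 486, 882, 329 and 244 across S+P C5 and 805, 1011, 355 and 142 across S+P C7, and its S+P C4 libraries of 119, 37.6, 36.8 and 14.6 stayed near Sensitized in all but replicate 1.

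The other 3 of these 6 peaks belong to Ptpn13, a tyrosine phosphatase (intron, chr5:103590017-103590472), Rgs8, a regulator of G protein signalling (chr1:153492726-153493623), and Mmp10, a matrix metalloproteinase (exon, chr9:7509675-7510514). Ptpn13 had 15.2, 22.6 and 19.6 in Naive, 92.3, 100.4, 66.5 and 96.5 in Sensitized, 105, 148, 163 and 145 in S+P C4, 401, 517, 297 and 353 across S+P C5 and 441, 497, 356 and 314 across S+P C7. At Rgs8 the S+P C4 libraries, 174, 356, 433 and 334, lay between Sensitized at 187, 153, 157 and 200.1 and S+P C5 at 750.3, 1097, 558 and 639.6 in 3 of 4 cases. At Mmp10 the S+P C5 libraries, 828, 1082, 627 and 706, and the S+P C7 libraries, 685, 611, 280.0 and 189, lay far above S+P C4 at 74.9, 53.2, 93.4 and 19 and Sensitized at 23.1, 40.8, 41.3 and 62.4. Mmp10 was the member of the 6 with the lowest S+P C7 to S+P C5 change, a log2 fold change of -0.88 that did not pass the test (DESeq2 adjusted p = 0.283).

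**Figure D3:**
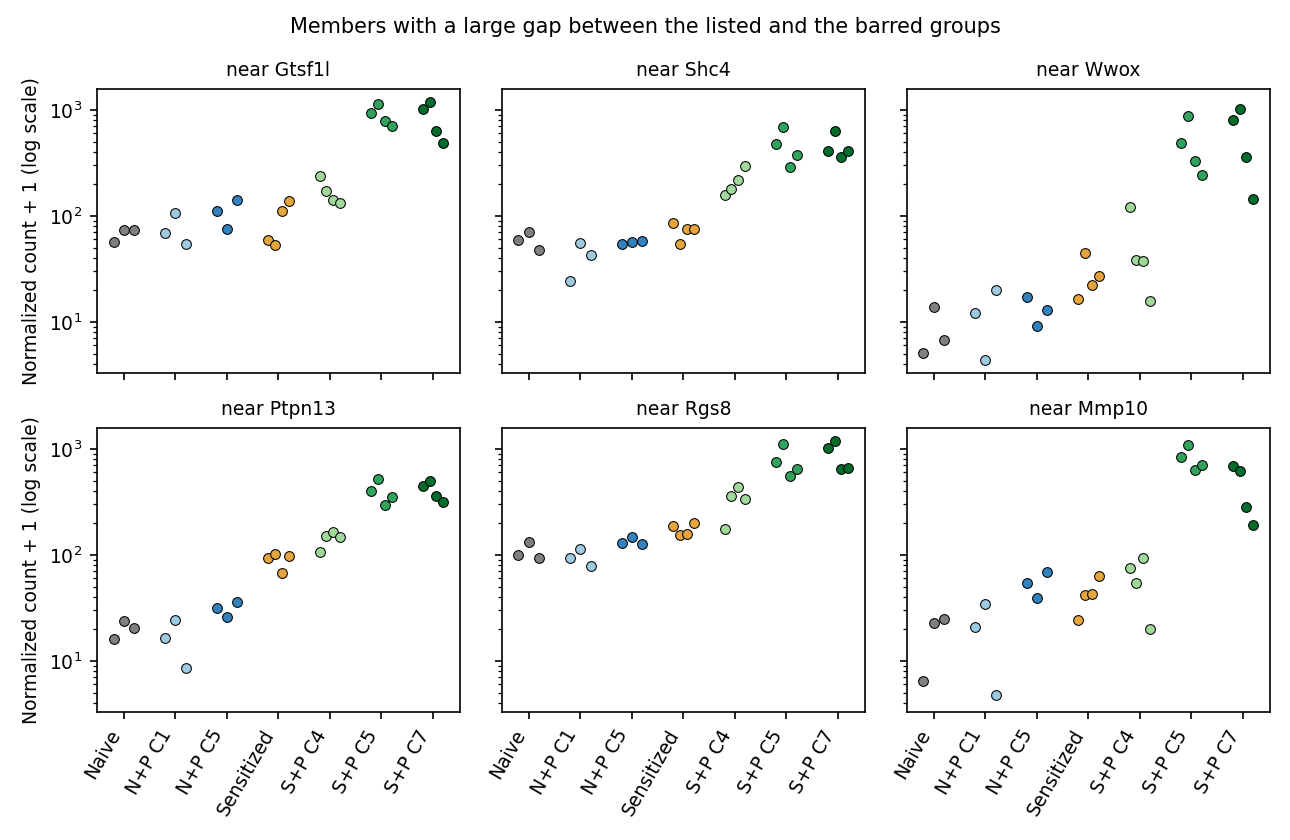
Normalized counts + 1 on a log axis in each of the 25 libraries, by group, for 6 of the members with the widest gap between the lowest S+P C5 or C7 library and the highest library of the barred groups. In each panel the S+P C5 and S+P C7 points lie above all Naive, N+P and Sensitized points.

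The comparison of Sensitized with Naive asks whether graft rejection alone had opened these regions, and both groups had to lack the peak. The rule still bears on its direction, since Naive and both N+P lists barred peaks of mice with no graft, only the Sensitized list barred those of grafted mice, and each member had to be a peak in cells of grafted mice. The counts below are therefore a description, and nothing about the members is read from their distance to all peaks. With DESeq2 (Wald test, adjusted p under 0.1 and absolute log2 fold change over 0.9), 246 of 748 members (32.9%) were higher in Sensitized, against 7.22% of all peaks, and 0 were lower, against 1.4%. At an unadjusted p under 0.05, 336 members were higher and 14 lower, against 2096 and 1496 of all peaks, and edgeR called 243 higher and 0 lower, against 958 and 173. The calls were mostly distal, with 221 of 435 members outside promoters (50.8%, against 15.4% of all such peaks) and 25 of 313 promoter members (7.99%, against 1.00%). Without Sensitized replicates 1 and 2, an alternative chosen after seeing the data, 150 members were higher, while the count over all peaks went from 977 to 556. With loess offsets the counts were 203 and 780. In 284 members (38.0%, against 12.7% of all peaks) every Sensitized library lay above every Naive one.

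The smallest adjusted p-values belonged to introns and 1 promoter. A peak in an intron of Samd12, with the start of Ext1, a heparan sulfate synthase, as the nearest at 145839 bp (chr15:53354987-53355895), had 23.4, 33.4 and 32.8 in Naive and 309.8, 438, 137 and 219 in Sensitized, and its log2 fold change was 3.18 (SE 0.31, DESeq2 adjusted p = 2.01e-21). Its S+P C4 libraries, at 153, 221, 291 and 254, overlapped Sensitized. In an intron of Stk32c, named for the start of Lrrc27 (chr7:138732330-138733195), the counts went from 19.3, 13.8 and 25.2 to 421, 415, 148 and 208, a log2 fold change of 3.92 (SE 0.39, DESeq2 adjusted p = 4.98e-21). The peak at chr13:113317185-113317919 lay 121 bp from a start of Gzmk, a granzyme of cytotoxic and memory T cells, although the nearest gene start by the naming rule was that of Esm1. It had 4.13, 3.93 and 5.05 in Naive, 326, 415, 80.8 and 117 in Sensitized and 262, 556, 422 and 279.9 across S+P C5, with a log2 fold change of 5.72 between Sensitized and Naive (SE 0.59, DESeq2 adjusted p = 4.86e-19). In all 3 peaks Sensitized replicates 1 and 2 lay above replicates 3 and 4, and all of them above Naive.

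Inhibitory receptors held 4 members among 29 peaks (13.8%, against 5.53% of all peaks), at Pdcd1, Havcr2 and Ctla4. Of the 4, all outside promoters, 3 were called higher in Sensitized than in Naive. That call was made for 32.9% of all members (50.8% of those outside promoters) and 7.22% of all peaks. An intron of Pdcd1, the gene of PD1 itself (chr1:93969731-93970855), had 52.3, 51.1 and 36 in Naive, 43.3, 57.6 and 57.7 in N+P C5, 448, 438, 106 and 130.2 in Sensitized, 163, 170.1, 304 and 224 in S+P C4, 423, 556, 476 and 325 across S+P C5 and 472, 650.3, 565 and 357 across S+P C7. Sensitized differed from Naive by 2.60 on the log2 scale (SE 0.40, DESeq2 adjusted p = 5.31e-09), and Sensitized replicates 1 and 2 lay within the S+P C5 and C7 libraries. The region 22416 bp from the Pdcd1 start (chr1:94002326-94003130), named after its values were seen, had 35.8, 30.5 and 17 in Naive, 40.2, 71.3 and 68.5 in N+P C5, 380.1, 391, 93.5 and 118 in Sensitized, 153, 215, 253 and 121 in S+P C4, 601, 715, 636 and 247 across S+P C5 and 654, 558, 645 and 247 across S+P C7. Its replicate 4 libraries in S+P C5 and S+P C7 overlapped Sensitized. Havcr2, which encodes the inhibitory receptor TIM3, had an intron member (chr11:46357501-46358143) at 66.1, 54.1 and 25.9 in Naive and 435, 315, 82 and 83 in Sensitized (log2 fold change 2.25, SE 0.48, DESeq2 adjusted p = 5.81e-05). Its S+P C5 libraries, 284, 488, 482 and 360.5, overlapped S+P C4 at 122, 229.8, 424 and 308.

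Ctla4 and Ikzf2 behaved differently from Pdcd1. The Ctla4 member (chr1:60950459-60953126, midpoint in an exon) had counts of 428, 436 and 401 in Naive and 428, 454 and 494 in N+P C5. It was the longest member at 2668 bp, and counts are not scaled by length. The S+P C7 list covered 699 bp of it with a q-value of 0.968. The Ctla4 counts were 352, 434, 569 and 627 in Sensitized, 623, 566, 304 and 344 in S+P C4, 1049, 1371, 995 and 1089.6 across S+P C5 and 1098, 1248, 792 and 619 across S+P C7. Sensitized minus Naive was 0.23 on the log2 scale and did not pass the test (SE 0.24, DESeq2 adjusted p = 0.585). An intron of Ikzf2, which encodes the transcription factor Helios (chr1:69583259-69583874), had 82.7, 105 and 122 in Naive, 35.8, 60.4, 149.6 and 151 in Sensitized, 159.9, 139, 66.5 and 62.8 in S+P C4, 545, 619.9, 338 and 453 across S+P C5 and 589, 518, 249 and 209.8 across S+P C7. In these 2 peaks and at Gtsf1l, Sensitized replicates 3 and 4 and S+P C4 replicates 1 and 2 were the higher libraries, the reverse of the order over members as a whole.

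Transcription factors of exhaustion had 14 members among 98 peaks (14.3%, against 5.53% of all peaks), at 10 of 19 genes. Of the 14, 6 were called higher in Sensitized than in Naive, a call made for 32.9% of all members and 7.22% of all peaks. An intron of Tox and the Eomes promoter were chosen after their values were seen. The Tox peak (chr4:6843634-6844661) had 15.2, 21.6 and 20.2 in Naive, 276, 316, 82 and 99.3 in Sensitized, 204, 134, 207 and 176 in S+P C4, 302, 569, 436 and 345 across S+P C5 and 329, 386, 545 and 289.9 across S+P C7, with a log2 fold change of 3.33 between Sensitized and Naive (SE 0.41, DESeq2 adjusted p = 1.19e-13). Tox2, its relative, had an intron member (chr2:163094977-163095895) with 456, 371, 231 and 233 in Sensitized, 204, 327, 505 and 508 in S+P C4 and 674, 773, 525 and 579.9 across S+P C5. The S+P C5 libraries of Tox2 lay above all S+P C4 and Sensitized libraries, which those of Tox did not. Eomes, a T-box factor of memory and exhausted cells, was the only gene of the list whose member lay at its promoter (chr9:118305883-118308507). Its counts were 326, 313 and 361 in Naive, 754, 673, 428 and 421 in Sensitized, 534, 574, 764 and 614 in S+P C4, 959, 1022, 899 and 935 across S+P C5 and 1126, 1226, 986 and 798 across S+P C7. The Eomes difference between Sensitized and Naive was 0.77 on the log2 scale (SE 0.19, DESeq2 adjusted p = 0.000772), which passed the p threshold and not the fold threshold. The peak 58410 bp from Id2, an inhibitor of E proteins (chr12:25205449-25205935), had 40, 31.5 and 45.4 in Naive, 219, 132, 69.4 and 77 in Sensitized, 136, 218, 325 and 401 in S+P C4 and 379, 415, 245 and 259 across S+P C5.

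Tbx21, which encodes T-bet, had members at 3 of its 4 peaks. Those in introns at chr11:96994576-96995534 and chr11:97003230-97004006 were called higher in Sensitized than in Naive, with log2 fold changes of 4.00 (SE 0.52, DESeq2 adjusted p = 1.28e-12) and 3.35 (SE 0.42, DESeq2 adjusted p = 3.19e-13). The first had 8.27, 33.4 and 12.6 in Naive, 611, 349, 82 and 124 in Sensitized, 214, 328, 603 and 378 in S+P C4, 447, 689, 588 and 398 across S+P C5 and 605, 616, 679 and 570.2 across S+P C7. Sensitized replicate 1 there exceeded 3 of the 4 S+P C5 libraries. The third, between genes at chr11:97017662-97018294, missed the fold threshold at 0.74 (DESeq2 adjusted p = 0.0302).

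Effector genes had 12 members among 61 peaks (19.7%, against 5.53% of all peaks), at Ccl3, Ccl4, Fasl, Gzma, Gzmb, Gzmm, Ifng, Klrc1, Klrg1 and Prf1. The member 121 bp from a start of Gzmk, also on this list, is named for Esm1 and is not among them. Of the 12, 8 were called higher in Sensitized than in Naive, a call made for 32.9% of all members and 7.22% of all peaks. The peak 3933 bp from Gzma, a granzyme (chr13:113241268-113241645), had 2.76, 3.93 and 3.79 in Naive, 250.3, 228, 43.6 and 48.3 in Sensitized, 68.1, 221, 318 and 323 in S+P C4, 211, 298, 212 and 207 across S+P C5 and 309.6, 346, 355 and 385 across S+P C7 (Sensitized against Naive 5.32, SE 0.70, DESeq2 adjusted p = 2.88e-12). No Naive or N+P library had more than 12.3 there. The peak 29636 bp from Ifng, the gene of interferon gamma (chr10:118306252-118306922), had 37.2, 55.1 and 71.9 in Naive, 343, 286, 101 and 129 in Sensitized, 319, 399, 279.9 and 374 across S+P C5 and 524, 674, 520.3 and 578 across S+P C7. A region 34877 bp from Gzmb, the main granzyme of killing (chr14:56534279-56534909), differed less, with 186, 212 and 241 in Naive, 328, 229, 257 and 251 in Sensitized, 398, 276, 409 and 408 in S+P C4 and 336, 295, 282 and 293 across S+P C5.

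Genes of stem-like cells and homing held 3 members among 113 peaks (2.65%), at Foxp1, Klf2 and S1pr1, and none reached both thresholds in Sensitized against Naive, while the S1pr1 and Foxp1 peaks had log2 fold changes of 0.70 (DESeq2 adjusted p = 0.0198) and 0.88 (DESeq2 adjusted p = 0.0144). S1pr1 is the receptor that lets T cells leave lymph nodes, and its member (chr3:115469200-115470089) had 249, 202, 126 and 150.2 in Sensitized, 191, 312, 332 and 324 in S+P C4, 424, 598, 400.1 and 455 across S+P C5 and 492, 572, 456 and 422 across S+P C7. Cytokine and chemokine receptors had 4 members among 77 peaks (5.19%), costimulation genes 2 among 27 (7.41%), brakes and kinases of the T cell receptor 6 among 78 (7.69%) and the Jak and Stat genes 3 among 34 (8.82%). Over all peaks the share of members was 5.53%. In these lists, in the same order, 2, 1, 4 and 2 members were called higher in Sensitized than in Naive. That call was made for 32.9% of all members and 7.22% of all peaks. Jak2, a cytokine receptor kinase, had an intron member (chr19:29248345-29248991) with 16.5, 15.7 and 22.1 in Naive, 42.3, 71.3 and 57.7 in N+P C5, 343, 289.5, 104 and 138 in Sensitized, 68.1, 203, 318 and 279 in S+P C4 and 493, 617, 513 and 409.7 across S+P C5. DESeq2 called none of the 748 members lower in Sensitized than in Naive, and so none in these 8 lists. It called 4 of the 748 different between S+P C7 and S+P C5, none of them in these lists.

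Members lay near 689 genes, and 10 genes had 3 or more. Plxnc1, a semaphorin receptor, had 3 of its 4 peaks as members, Spata2 and Fmnl3 all 3 of theirs, and Atf7ip, Cmip, Mllt3, Pitpnc1 and Rps6kb1 had 3 each of 6 to 9. The exon peak of Plxnc1 (chr10:94700168-94701430) had 42.7, 34.4 and 38.5 in Naive, 504, 527, 132 and 175 in Sensitized, 146, 361, 521 and 349 in S+P C4, 462, 831, 561 and 548 across S+P C5 and 361, 739, 731 and 524 across S+P C7, and all 3 were higher in Sensitized than in Naive. Peaks of 1 gene need not move together, since the 3 peaks in Mllt3, a reader of acylated histones, had Sensitized to Naive log2 fold changes of 0.23 (adjusted p = 0.549), 1.89 (adjusted p = 2.41e-07) and 3.13 (adjusted p = 5.79e-16) by DESeq2. The peaks named for Rps6kb1 lie in introns of Vmp1, and the 4 named for ENSMUSG00000144252 in introns of Prkch, a protein kinase C. In all, 31 pairs of neighbouring members lay within 10000 bp, so members are not independent regions.

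S+P C7 and S+P C5 differ in CD73 and both had to carry the peak. By DESeq2, 4 members were called higher in S+P C7, against 0.266% of all peaks, and 0 lower, against 2.11%. edgeR called 4 and 0, against 25 and 251 of all peaks. Both lists chose the members and the S+P C7 list touched fewer peaks of the table (8652 against 11213), so peaks lower in S+P C7 could drop out by the choice, and nothing about the members is read from these shares. At an unadjusted p under 0.05, 105 members were higher and 6 lower, against 964 and 1530 of all peaks, and 592 of 748 had a log2 fold change over 0, against 6695 of all 13527 peaks, with a median of 0.15 over members. The 731 peaks on the Sensitized, S+P C5 and S+P C7 lists, which the same 2 lists chose, had a median difference of 0.14. With the adjusted p alone, 37 were higher and 2 lower, against 383 and 825 of all peaks, the latter 2, also named after their values were seen, at Utrn, which encodes the cytoskeletal protein utrophin (-0.54, adjusted p = 0.0158), and Ankrd12 (-0.70, adjusted p = 0.0811). With the replicate number as a block, since C5 and C7 cells pair by number, 6 were higher and 1 lower, against 56 and 387 of all peaks. With all libraries, 4 of the 36 higher calls over all peaks were members. Leaving out S+P C7 replicate 4 gave 0 of 5, leaving out S+P C5 replicate 3 gave 2 of 22, and with S+P C5 replicate 2 left out there were 7 of 33.

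The 4 peaks lay outside promoters. The peak 56621 bp from Cd34, a sialomucin of progenitor cells (chr1:194677407-194677892), had 325, 397, 189.8 and 232 in Sensitized, 259, 371, 427 and 444 in S+P C4, 228, 257, 217 and 279 across S+P C5 and 432, 497, 419 and 563 across S+P C7. The S+P C7 libraries did not overlap S+P C5 (log2 fold change 0.97, SE 0.22, DESeq2 adjusted p = 0.000795), and the S+P C5 libraries lay within the range of Sensitized. A peak in an intron of Cep192, 49747 bp from the start of Ldlrad4, an inhibitor of TGF-beta signalling (chr18:68015731-68016148), had 214, 293, 454 and 432 in S+P C4, 172, 205, 199 and 246 across S+P C5 and 353, 289, 461 and 523 across S+P C7 (0.99, SE 0.24, DESeq2 adjusted p = 0.00195). The peak 34462 bp from Adrb1, the beta-1 adrenergic receptor (chr19:56744613-56745572), had 23.4, 20.7 and 16.4 in Naive, 276, 454, 672 and 744 in S+P C4, 287, 485, 297 and 452 across S+P C5 and 699, 924, 736 and 1028 across S+P C7 (1.16, SE 0.38, DESeq2 adjusted p = 0.0429). An intron of Manba, a lysosomal mannosidase (chr3:135233270-135233995), named after its values were seen, had 170.1, 338, 494 and 501 in S+P C4, 325, 373, 192 and 257 across S+P C5 and 635, 629.9, 649.5 and 736 across S+P C7 (1.21, SE 0.41, DESeq2 adjusted p = 0.0527). At all 4 peaks the S+P C4 mean was above the S+P C5 mean.

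**Figure D4:**
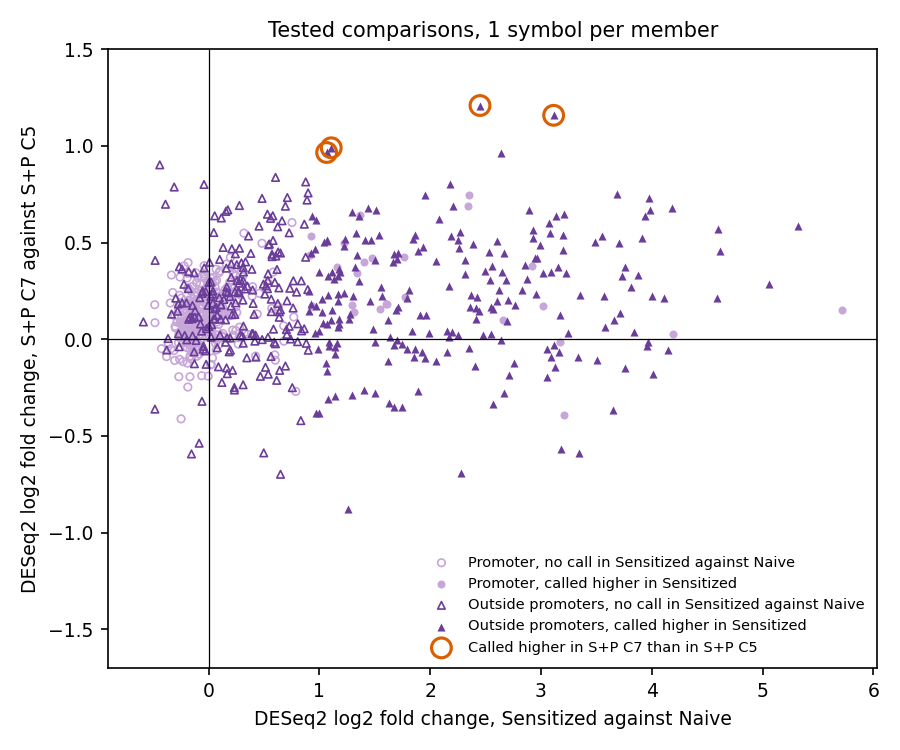
DESeq2 log2 fold change of Sensitized against Naive (x) and of S+P C7 against S+P C5 (y) for the 748 members, with circles for promoter members and triangles for members outside promoters. Filled symbols are the 246 members called higher in Sensitized, and orange rings mark the 4 called higher in S+P C7. Points spread to the right, up to 5.72, and more lie above the line at 0 than below it.

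The PD1-negative S+P C4 cells were not used by the rule, but each group they can be set against was. The rule selected for peaks of both PD1-positive groups and against those of Sensitized and Naive, so the values of S+P C4 beside them, and the shares against all peaks, are a description from which nothing is read. The median of S+P C4 minus Sensitized was 0.27 on the log2 scale over members (0.26 at promoters and 0.29 outside), against -0.01 over all peaks. S+P C4 lay above every Naive library in 393 members (52.5%, against 13.4% of all peaks) but above every Sensitized library in 33 (4.41%, against 1.41%). All S+P C5 and C7 libraries exceeded all S+P C4 libraries in 118 members (15.8%, against 3.31%), of which 108 were outside promoters. Set on a scale of mean log2(normalized count + 1) that runs from 0 at Sensitized to 1 at the mean of S+P C5 and S+P C7, S+P C4 had a median of 0.519 over the 740 members where that range is positive. It was 0.665 at promoters and 0.396 outside, with 99 members below 0, 563 from 0 to 1 and 78 above 1. The ends of the scale were peaks with a small range. They were Sit1, an adaptor that dampens T cell receptor signals (4.79), Chsy1 (3.14) and Prr14l (3.07) at the top and Bcl2a1b, a survival factor (-5.55), Ammecr1 (-5.08) and Heg1 (-2.82) at the bottom. Without Sensitized replicates 1 and 2, chosen after seeing the data, the median of S+P C4 minus Sensitized was 0.69 outside promoters, and without Sensitized replicates 3 and 4 it was -0.052.

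**Figure D5:**
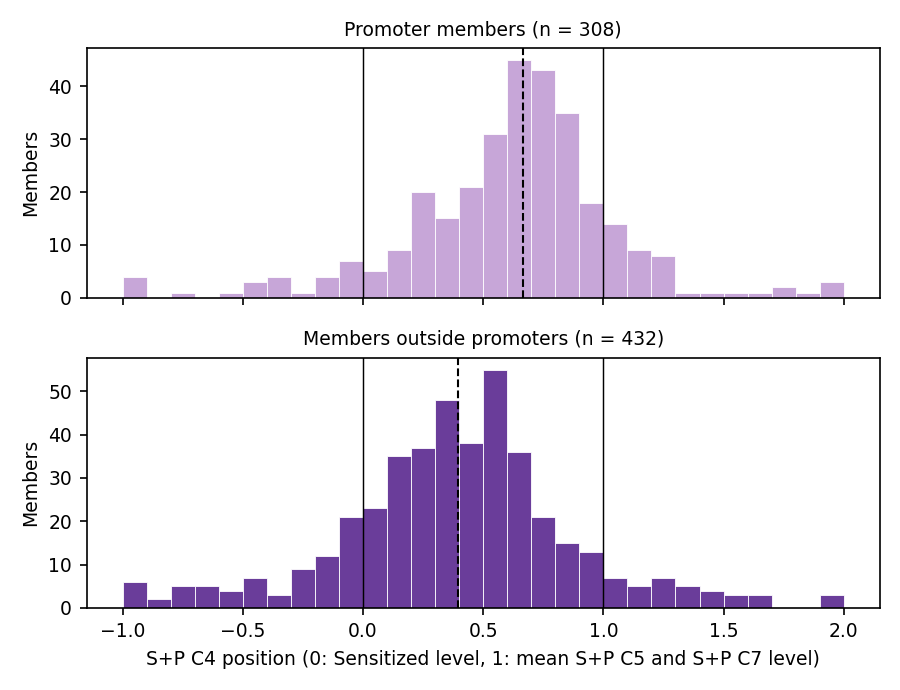
Histograms of the position of S+P C4 between Sensitized (0) and the mean of S+P C5 and S+P C7 (1) by group means of log2(normalized count + 1), in 308 promoter members and 432 members outside promoters, with values beyond the ends placed in the end bins. Dashed lines mark the medians of 0.665 and 0.396.

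The 4 members on the S+P C4 list, named after their values were seen, were near Lin54, Cdk8 and Axin2 and on the contig MU069435.1. For the latter 3 peaks, S+P C4 replicate 1 alone had 2321, 3848 and 6890.4 normalized counts, and the other S+P C4 libraries had 198 to 278, 254 to 369 and 534 to 836. That library was also the shallowest, and its part in these values was not tested.

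A first pregnancy was compared with no pregnancy in groups that all had to lack the peak. The counts and shares are therefore a description, and nothing about the members is read from their distance to all peaks. For N+P C5 against Naive DESeq2 called 0 members higher (0.0262% of the 3824 peaks with an adjusted p) and 0 lower (0%). For N+P C1 against Naive it called 0 higher (0%) and 0 lower (0.0205% of 4873), and for N+P C5 against N+P C1 0 and 0 (0% and 0% of all peaks). edgeR called 0 in each, over members and over all peaks. The filter of DESeq2 on low counts left 4 members with an adjusted p in the first comparison and 9 in the second, so these counts rest on few members. At an unadjusted p under 0.05 there were 55 higher (7.35%, against 9.74% of all peaks) and 46 lower (6.15%, against 7.71%) for N+P C5. For N+P C1 there were 11 (1.47%, against 9.88%) and 83 (11.1%, against 9.13%), and for N+P C5 against N+P C1 62 (8.29%, against 2.04%) and 1 (0.134%, against 0.237%). In the fit of 2 groups alone, 20 members were higher in N+P C5 than in Naive, of 56 among all peaks, and without Naive replicate 3 there were 32, of 97, so the count of 0 depends on the fit.

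The median of N+P C5 minus Naive was -0.06 on the log2 scale over members, 0.01 outside promoters and -0.14 at promoters. Between 192 and 197 members (25.7 to 26.3%) were above the highest Naive library in each N+P C5 library, and between 102 and 120 (13.6 to 16.0%) in each N+P C1 library. Over all peaks these shares were higher, at 28.2 to 34.5% and 27.8 to 32.7%. In Sensitized 339 to 596 members (45.3 to 79.7%) were above it, against 27.4 to 36.3% of all peaks. The lists of all these groups entered the rule, so nothing about the members is read from these shares. Some members had more in N+P C5 than in Naive without a call, and 2 of these are given here for their values. They are Mmp10, with 53.3, 38.4 and 68.5 against 5.51, 21.6 and 24, and Stat4, a transducer of interleukin signals (intron, chr1:52079329-52080245), with 38.2, 49.3 and 64.9 against 16.5, 15.7 and 19.6. The Sensitized libraries of the Stat4 peak were at 379.6, 306, 83.1 and 107, above all of these.

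By position, 313 members (41.8%, Wilson 95% interval 38.4 to 45.4) were at promoters, 246 (32.9%) in introns, 165 (22.1%) between genes, 23 in exons and 1 on a contig without a gene. Over all peaks, promoters made 56.7%, introns 20.8% and intergenic regions 19.6%. The 731 peaks on the Sensitized, S+P C5 and S+P C7 lists, which differ from members by 1 list, were at promoters in 31.1%. The median member was 655 bp long, against 963 for all peaks. Outside promoters the median member was 24066 bp from the nearest start, and 59 members in all were over 100000 bp away. Promoter members had a median GC content of 63.1%, against 59.3% for all promoter peaks, while members outside promoters had 48.1%, as had all such peaks.

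Members were not spread evenly over chromosomes. Chromosome 19 had 51 of its 331 peaks as members (15.4%) and chromosome 11 had 87 of 813 (10.7%), against 8 of 396 on chromosome 18 (2.02%) and 4 of 307 on the X chromosome (1.30%). Over all peaks of these chromosomes the median S+P C5 minus Sensitized on the log2 scale was 0.36 on 19, 0.19 on 11, -0.11 on 18 and -0.11 on X. Over chromosome 19 peaks that were no members, the deviation of a library's median ran from -0.13 to 0.08 in Naive, -0.33 to 0.09 in Sensitized, 0.13 to 0.22 across S+P C5 and 0.14 to 0.27 across S+P C7. The share of promoter peaks that were members was 2.71%, 2.19%, 3.65% and 7.77% in 4 equal bins from the lowest to the highest GC content, and the median S+P C5 minus Sensitized of all promoter peaks in these bins went from -0.10 to 0.15. Outside promoters the share was 7.72% and 7.71% in the end bins, while by chromosome it was 16.4% on 19, 13.9% on 11, 3.28% on 18 and 2.06% on X. The part of chromosome and GC content in the levels of members, at promoters or outside them, was not tested.

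Letters of known motifs were searched on both strands in windows of 300 bases around peak midpoints. The AP-1 letters TGANTCA, bound by Fos and Jun family factors that act on T cell activation, were in 24.6% of members outside promoters, against 15.8% of all such peaks. Over promoters and other regions together they were in 16.8% of members, 9.17% of all peaks and 18.2% of the 731 peaks on the Sensitized, S+P C5 and S+P C7 lists. The T-box letters GGTGTGA, read by T-bet and EOMES, were in 12% of members outside promoters against 7.72% of all such peaks. Over all regions together they were in 8.42% of members, 5.12% of all peaks and 10.8% of those 731 peaks. Outside promoters, the TCF/LEF letters CTTTGAT, read by TCF1 of naive and stem-like cells, were in 3.22% against 7.21%. The other shares were 24.4% against 25.4% for NFAT (TGGAAA), 20.2% against 20.1% for Runx (TGTGGTT), 18.9% against 21.4% for Ets (AGGAAGT) and 2.53% against 1.59% for NR4A (AAAGGTCA). They were 9.89% against 10.9% for IRF (GAANNGAAA), 9.43% against 10.2% for STAT (TTCNNNGAA), 4.37% against 5.23% for Sp and Klf factors (GGGCGGGG) and 21.6% against 18.8% for an E-box (CAGCTG). NFAT letters can lie within IRF letters, and the STAT letters can overlap those of Ets and NFAT. The 107 members with AP-1 letters outside promoters had a median S+P C5 minus Sensitized of 0.94 on the log2 scale and the 328 without had 0.62, while Sensitized minus Naive was 1.44 and 0.72. With and without T-box letters the medians were 0.91 and 0.67, and 1.59 and 0.81. Over whole peaks outside promoters the shares were 37.7% against 34.6% for AP-1, 22.5% against 19.3% for T-box and 48.7% against 54.2% for NFAT letters. Such matches describe sequence and do not show that a factor was bound.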

How the data were processed

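Per the labels and the study's methods, the authors trimmed paired reads with cutadapt 3.4, aligned them to GRCm39 with Bowtie2 2.2.9, removed duplicates with Picard 2.21.8 and called peaks per library with Genrich 0.6.1, in its mode for transposase cut sites. The authors then kept peaks that recurred within a group with ChIP-R, so each of the 7 deposited lists pools a group's libraries and has no replicate error. Of its deposited columns, the score and the q-value of each peak were used here. The deposited table holds raw counts for 13527 peaks in 25 libraries sequenced in the same run, with 0 per-sample columns left out. The values were not scaled by the authors, and depth limits low peaks in the shallowest library most.

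Normalized counts are counts divided by DESeq2 size factors. The main fit used DESeq2 1.42.0 (R 4.3.3), all libraries, the group as the only term, the Wald test and Benjamini-Hochberg adjustment over all peaks, with the study's thresholds (adjusted p under 0.1, absolute log2 fold change over 0.9, unshrunken). edgeR 4.0.16 and loess offsets in place of size factors were alternatives, and the fits were tested on simulated data first. Other steps used Python 3.11.15, pandas 2.3.3, numpy 2.4.6 and scipy 1.17.1. Positions come from GENCODE vM39, which gave a gene for 13522 peaks. Intervals are Wilson 95% intervals and cover counting error only.

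The peaks given in full were the 8 with the widest separation (2 of them are not reported here), up to 3 higher and 3 lower calls per test with the smallest adjusted p, the 3 highest and 3 lowest positions of S+P C4, up to 3 peaks with the largest separation in each gene list, peaks of genes with 3 or more members, and the peaks at the edge of the rule. Members and gene lists were chosen with earlier results of these data known. No library was a copy of another (lowest chi-square per degree of freedom 2.81). Same-numbered libraries deviated together in S+P C5 and S+P C7 (r 0.522 to 0.771) and in N+P C1 and N+P C5 (r 0.108 to 0.400), which were taken as paired. They did so only in part in S+P C4 with S+P C5 (r 0.103 to 0.572) and with S+P C7 (r 0.0639 to 0.666), whose differences have no test here. S+P C4 replicate 2 had a higher r with replicate 1 of S+P C5 (0.158) and of S+P C7 (0.183) than with their replicate 2. S+P C4 replicate 3 had a higher r with S+P C5 replicate 2 (0.440) than with S+P C5 replicate 3 (0.313).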

Additional observations from a re-analysis of the deposited data

Results flagged for a closer look

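Of 312 sets of 4 values tested, the highest or lowest library of a group lay far from the others by Dixon's ratio in 15, and chance alone flags about 1 in 20. In 6 of the 15 the library was S+P C5 replicate 2. It had 640 normalized counts at Lrrc27 (others 463 to 473), 298 at Gzma (207 to 212), 969 at the Plxnc1 peak at chr10:94696458-94697301 (378 to 432), 485 at the Tbx21 peak at chr11:97003230-97004006 (291 to 319), 496 at a peak of ENSMUSG00000144252 (241 to 284) and 276 at an Atf7ip peak (191 to 202). S+P C5 replicate 1 had 472 at Sit1 (404 to 413).

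Sensitized replicate 1 had 306 at Prr14l (others 202 to 208) and 415 at a Spata2 peak (308 to 322). S+P C4 replicate 1, the shallowest library, was the lowest with 136 at Bcl2a1b (328 to 341), 191 at S1pr1 (312 to 332) and 119 at the Plxnc1 peak at chr10:94682594-94683545 (477 to 523), and S+P C4 replicate 2 had 276 at Gzmb (398 to 409). S+P C7 replicate 3 had 532 at Bcl2a1b (283 to 322) and 674 at a Cmip peak (731 to 741).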

How the results depend on the processing

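Of the values recomputed for summaries under other settings, 279 kept their direction and stayed within their limits, 40 moved and 1 reversed, and of those for single named peaks 105 kept their call and 6 lost it. The limits were wide, so a kept value can still have changed much. S+P C4 minus Sensitized over all members counted as kept at 0.055 without Sensitized replicates 3 and 4, against 0.27 with all libraries. The reversed value was S+P C4 minus Sensitized outside promoters, 0.29 with all libraries and -0.052 without Sensitized replicates 3 and 4, which was chosen after seeing the data. In the rest of this paragraph and in the next, counts over all peaks stand in parentheses. For S+P C7 against S+P C5, members called higher went from 4 (36) to 37 (383) without the fold threshold. Leaving 1 library out gave 0 to 7, with 0 (5) without S+P C7 replicate 4 and 7 (33) without S+P C5 replicate 2. Those lower went from 0 (286) to 2 (825) without the fold threshold and 1 (387) with the replicate block. Leaving 1 library out gave 0 to 1 lower, with 1 (551) without S+P C7 replicate 1 and 1 (286) without S+P C7 replicate 2. For Sensitized against Naive, the 246 (977) higher members became 150 (556) without Sensitized replicates 1 and 2. Lower members went from 0 (189) to 4 (981) without the fold threshold and 2 (775) without Sensitized replicates 3 and 4.

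For N+P C5 against Naive, members higher went from 0 to 1 without the fold threshold, 20 in a fit of the 2 groups, 8 without the independent filter, 11 with the replicate block, 9 with size factors from peaks common to all lists, 9 with total counts and 0 to 32 leaving 1 library out (32 without Naive replicate 3, 3 without N+P C5 replicate 2), and members lower to 0 to 1 leaving 1 out. For N+P C1 against Naive, members higher went from 0 (0) to 1 (3) in the fit of 2 groups and 1 (3) with the block. Each of the settings without the filter, with common-peak size factors and with total counts gave 1 (1). Leaving 1 out gave 0 to 5, with 5 (15) without Naive replicate 3. Members lower went from 0 (1) to 1 (97) without the fold threshold and 12 (80) in the fit of 2 groups. They were 5 (38) without the filter and 8 (57) with the block. With common-peak size factors there were 9 (66) lower, and with total counts 8 (55). Leaving 1 out gave 0 to 17 lower, with 17 (145) without Naive replicate 3. For N+P C5 against N+P C1, 2 (9) were higher in the fit of 2 groups. Naive and N+P libraries share only a replicate number, and their block is given for that reason here alone. The causes of these changes were not tested.

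Requiring a q-value under 0.05 on the lists left 0 members. With 50% of the peak covered there were 726, with the S+P C4 list barred too 744, and with barred peaks within 500 bp 742. Promoters within 3000 bp held 49.1% of members. Over whole peaks the letters of AP-1 were in 27.4% of members (25.7% of all peaks), of Runx in 24.2% (25.2%), of T-box factors in 18.3% (16.0%) and of NFAT in 40.8% (52.3%), while in windows the AP-1 and NFAT shares were 16.8% (9.17%) and 19.7% (18.1%). Without S+P C7 replicate 4 the calls at Cd34 (0.87) and Ldlrad4 (0.84) were lost, and that at Adrb1 (1.04 to 1.11) was lost without any of S+P C5 replicates 1 and 3 and S+P C7 replicates 2 and 4.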
